A study of Mus musculus with 5 samples.

Results

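The miR-26 and miR-103/miR-107 families are microRNAs (miRNAs), short RNAs that pair through their seed (bases 2 to 8) with messenger RNAs and lower their output. The 4 probes described here are all the probes named exactly mmu-miR-26a, mmu-miR-26b, mmu-miR-103 or mmu-miR-107, out of 569 mouse miRNA probes on the array, and passenger strands marked with an asterisk were left out. They were measured in the hippocampus of 129/Sv mice aged 8 weeks. All mice carried human BDNF knocked in, as Met/Met or as Val/Val homozygotes. BDNF, brain-derived neurotrophic factor, is released by neurons and supports their survival and the plasticity of their synapses. No mouse with the unmodified mouse gene was measured, and whole hippocampus mixes neurons, glia and vessels. Each of 5 two-colour arrays compared small RNA of 1 Met/Met mouse (Cy3) with that of 1 Val/Val mouse (Cy5), and the labels call the arrays biological replicates 1 to 5.

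Intensities were deposited under the column names Test and Cntrl, with no genotype or dye attached to either name. Every ratio is given as Test over Cntrl on the log2 scale, and whether a positive one means higher in Met/Met or in Val/Val mice is unsettled. Dye followed genotype on all 5 arrays, so their effects cannot be told apart.

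MiR-26 is abundant in brain and is known for its rise during neuronal differentiation, and in human cells the BDNF transcript itself has been described as a target. MiR-103 and miR-107 are known as repressors of Dicer, the enzyme that cuts precursor hairpins into mature miRNAs, and of genes of lipid and insulin metabolism. Both families sit in introns of protein-coding genes. The miR-26 hosts are the Ctdsp genes, small phosphatases that act on the tail of RNA polymerase II. The miR-103/miR-107 hosts are the pantothenate kinases (Pank), which catalyse the entry step of coenzyme A synthesis.

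The mature strands are shown because each family shares its seed, in capitals, and its members differ only outside it. Sequences are those of the array targets and are identical to RefSeq mature strands (GRCm38.p6).

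miR-26a: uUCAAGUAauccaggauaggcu
miR-26b: uUCAAGUAauucaggauaggu
miR-103: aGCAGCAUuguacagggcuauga
miR-107: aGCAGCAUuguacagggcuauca

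Positions are counted from 1 at the 5′ end. MiR-26a and miR-26b differ by C11U (miR-26a base first) and by the C at position 21 of miR-26a, which miR-26b lacks, an edit distance of 2. MiR-103 and miR-107 differ by G22C alone (miR-103 base first). Apart from the family partner, no target on the array lay within an edit distance of 2 of any of the 4 or shared either seed. Signal shared between the members of a family was not tested.

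The mature strand of miR-26a is made from 2 loci and that of miR-103 from 2 loci, so their probes report sums. Mir26a-1 lies at chr9:119031796-119031885 (+ strand) within Ctdspl. Mir26a-2 lies at chr10:126995530-126995613 (+ strand) within Ctdsp2. Mir26b lies at chr1:74394310-74394394 (+ strand) within Ctdsp1. The Pank loci are Mir103-1 at chr11:35782396-35782481 (+ strand) within Pank3, Mir103-2 at chr2:131288052-131288137 (+ strand) within Pank2 and Mir107 at chr19:34820687-34820773 (− strand) within Pank1. All 6 hairpins run in the direction of their host. The miR-26 strands are on the 5p arm and the miR-103/miR-107 strands on the 3p arm. The hairpins of the duplicated loci are printed with the mature strand in capitals, because only the lower-case part tells the loci apart.

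Mir26a-1: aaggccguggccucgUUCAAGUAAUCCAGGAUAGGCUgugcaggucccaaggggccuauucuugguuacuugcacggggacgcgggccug
Mir26a-2: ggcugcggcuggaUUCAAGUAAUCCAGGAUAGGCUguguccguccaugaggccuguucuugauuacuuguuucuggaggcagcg
Mir103-1: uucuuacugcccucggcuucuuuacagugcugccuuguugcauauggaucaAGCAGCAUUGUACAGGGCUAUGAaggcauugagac
Mir103-2: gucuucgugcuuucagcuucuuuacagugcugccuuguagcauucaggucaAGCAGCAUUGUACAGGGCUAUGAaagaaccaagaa

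All 4 miRNAs gave strong signal on every array, at least 22.1 times the 95th percentile of the mismatch control spots of the same column. Among the 569 probes, miR-26a ranked between 1 and 9 in brightness over the columns and arrays, miR-26b between 17 and 28, miR-103 between 46 and 55 and miR-107 between 48 and 56. Ranks describe signal, which also depends on the probe, and not amounts. The 6 spots of a miRNA differed by a coefficient of variation of 1.04% to 10.7%. The brain-enriched miR-124, miR-9, miR-128, miR-138, miR-218 and miR-137 were also all above the mismatch controls. Empty spots had medians of 31.4 to 45.7 intensity units in the Test column and 208 to 361 in the Cntrl column. Precision of the ratios is set by the 5 arrays.

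Mmu-miR-26a read 38475, 42741, 41661.5, 48237 and 33947.5 intensity units in Test on replicates 1 to 5, against 43548, 43771, 38933, 40395 and 39706 in Cntrl. The columns overlapped, and Test was higher on replicates 3 and 4. The brightest single miRNA spot was 53004 units in Test and 53658 in Cntrl, so miR-26a lay near the top of the range that the arrays recorded. Its columns averaged 41012 ± 5291 in Test and 41271 ± 2243 in Cntrl (SD, n = 5). Mmu-miR-26b read 31731, 33655, 21273, 23429.6 and 26614 in Test, against 30328, 33659, 25879, 20014 and 26311 in Cntrl. Again the columns overlapped. Replicates 1 and 2 were brightest in both, and Test was lower than Cntrl by the widest margin on replicate 3.

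Mmu-miR-103 read 11616, 14650.3, 12002, 9347 and 7826 units in Test, against 12869.8, 13718, 10649.6, 9774 and 13196 in Cntrl. Mmu-miR-107 read 11312, 14129.8, 11380.5, 8729.85 and 7596 in Test, against 12476, 13233, 10191, 9032 and 12749 in Cntrl. Both probes followed the same order over the arrays in the Test column, and Test exceeded Cntrl on replicates 2 and 3 for both. The widest gap was on replicate 5, where Test read lower. Averages were 11088 ± 2621 in Test and 12041 ± 1725 in Cntrl for miR-103, and 10629.7 ± 2554 in Test and 11536 ± 1824 in Cntrl for miR-107 (SD, n = 5).

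**Figure D1:**
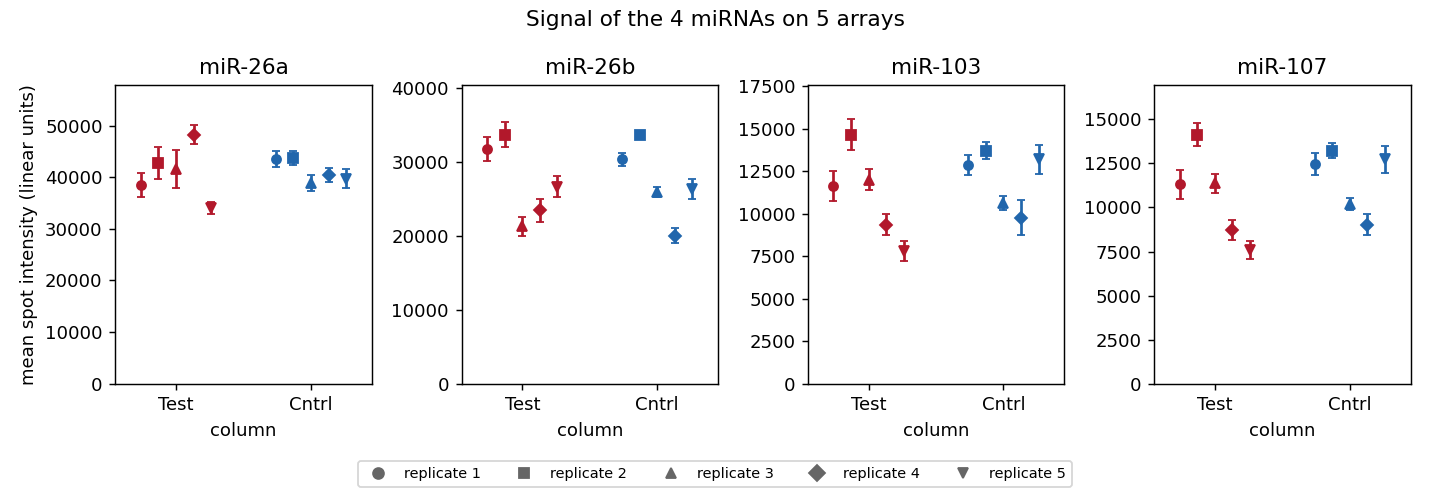
Mean spot intensity (vertical axis, linear units from 0, a separate scale per panel) of miR-26a, miR-26b, miR-103 and miR-107 in the Test column (red, left) and the Cntrl column (blue, right). Each symbol is 1 array with the SD of its 6 spots; the columns overlap in every panel, and miR-103 and miR-107 show the same arrangement of arrays.

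No member of either family differed between the columns after correction for multiple testing. After background correction and loess within each array, the mean log2 ratios were small. MiR-26a was at −0.096 ± 0.082 (SD, n = 5), which puts Cntrl 1.07-fold above Test, with a limma 95% interval of −0.19 to −0.00053. Its adjusted p was 0.248 over all miRNAs tested (limma, Benjamini-Hochberg), and its unadjusted p in limma was 0.049. Its ratios were −0.14, −0.088, −0.17, 0.039 and −0.11 on replicates 1 to 5, so after loess 4 of 5 arrays were below 0 and replicate 4 above. Before background correction and loess, replicate 3 also read higher in Test, with a raw log2 ratio of 0.094. Of all 568 miRNAs tested, 0% passed an adjusted p of 0.05, 19.4% (110) had an unadjusted p below 0.05, and 61.3% kept their direction on at least 4 of 5 arrays. A value like that of miR-26a was thus common on these arrays.

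MiR-26b had ratios of 0.097, −0.057, −0.40, 0.099 and 0.22 on replicates 1 to 5. Replicates 1, 4 and 5 were above 0 and replicates 2 and 3 below. Its mean was −0.0092 ± 0.24 (SD, n = 5), with an interval of −0.24 to 0.22 and a limma adjusted p of 0.975. That interval runs from 0.845-fold to 1.17-fold of Cntrl, so changes of that size cannot be told from 0 with these arrays.

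MiR-103 had ratios of −0.12, 0.040, 0.26, −0.073 and −0.29, and miR-107 had ratios of −0.11, 0.041, 0.26, −0.050 and −0.27. For both, replicates 2 and 3 were above 0 and the others below. The mean of miR-103 was −0.035 ± 0.20 (SD, n = 5; interval −0.23 to 0.16; limma adjusted p = 0.840), and that of miR-107 was −0.025 ± 0.20 (interval −0.22 to 0.17; limma adjusted p = 0.882). For both, 3 of 5 arrays read lower in Test.

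**Figure D2:**
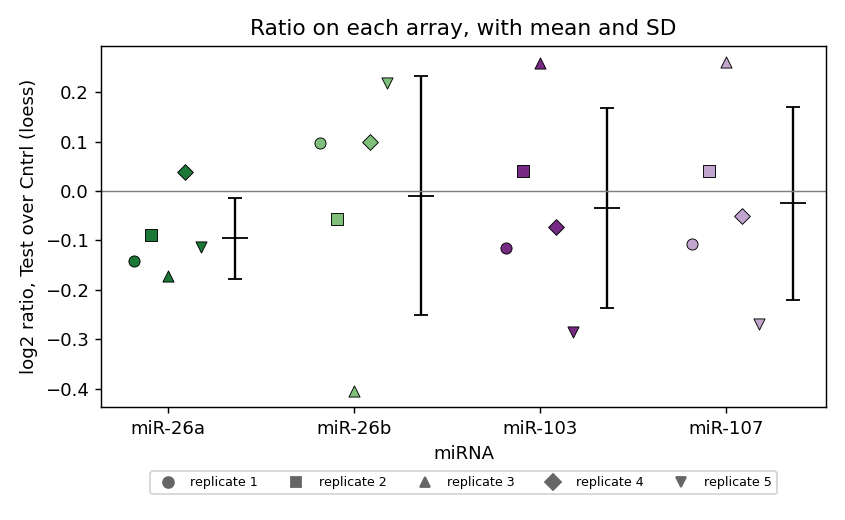
Log2 ratio of Test over Cntrl after loess (vertical axis) for the 4 miRNAs (horizontal axis). Each symbol is 1 array, and the bar beside them is the mean with the SD over 5 arrays; replicate 3 is the lowest for miR-26b at −0.40 and the highest for miR-103 and miR-107 at 0.26, and replicate 5 is the highest for miR-26b and the lowest for miR-103 and miR-107.

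The miRNAs differed in which arrays read high or low. On replicate 3 the miR-26 ratios were −0.17 and −0.40 while those of miR-103 and miR-107 were both 0.26. On replicate 5 miR-26b was at 0.22, while miR-26a, at −0.11, had the same sign as miR-103 at −0.29 and miR-107 at −0.27. On replicate 1 miR-26a also had the sign of miR-103 and miR-107. These differences between the families were not tested. Replicates 3 and 5 also ran opposite over all 568 miRNAs, with a Pearson r of −0.56 across miRNAs, which are not independent. Replicates 1 and 3 had r = −0.30, and the other 8 pairs of arrays lay between 0.17 and 0.63. Replicate 3 had r = 0.25 with replicate 2 and 0.17 with replicate 4. The labels give the same dyes for every array, and the cause of the pattern on replicate 3 was not tested. With the sign of replicate 3 turned, miR-26a was at −0.027, miR-26b at 0.15, miR-103 at −0.14 and miR-107 at −0.13, with limma adjusted p of 0.835, 0.302, 0.258 and 0.283.

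The SD between arrays was 0.24 for miR-26b, 0.20 for miR-103, 0.20 for miR-107 and 0.082 for miR-26a, against a median of 0.12 over all miRNAs. Over the 142 miRNAs of the brightest 25%, to which all 4 belong, the median SD was 0.23. MiR-26b, miR-103 and miR-107 were thus near the median of bright miRNAs. The SD of the 6 spots within an array, which is technical, was 0.045 to 0.11 for the members' log2 ratios.

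Inside the miR-103/miR-107 family the ratios were almost the same on every array. The difference of miR-103 minus miR-107 was −0.0080, −0.0013, −0.00055, −0.022 and −0.017 on replicates 1 to 5, with a mean of −0.0097 ± 0.0095 (SD, n = 5). It was negative on 5 of 5 arrays, which gives an exact two-sided sign-flip permutation p of 0.0625, the smallest that 5 arrays allow, and 0.125 adjusted over the 2 families. Its largest size was 0.022, under the SD of the spots within any array. On the authors' log2 ratios the same difference was above 0 on 3 of 5 arrays (mean −0.0013; exact sign-flip permutation p = 1), and with median centring the exact p was 0.4375, so the shared sign was not kept there.

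Inside the miR-26 family the members did not stay together. MiR-26a minus miR-26b was −0.24, −0.032, 0.23, −0.060 and −0.33 on replicates 1 to 5. The mean was −0.087 ± 0.22 (SD, n = 5), below 0 on 4 of 5 arrays, with an exact sign-flip permutation p of 0.3125, also 0.3125 adjusted over the 2 families. Replicate 3 had the opposite sign to the others. The mean was −0.17 without replicate 3, −0.048 without replicate 1 and −0.025 without replicate 5, so single arrays moved it by over 1.5 times. Under median centring, replicate 4 also had miR-26a above miR-26b (0.95 against 0.93), and the exact sign-flip permutation p was 0.875.

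The array held 41 pairs of miRNAs within an edit distance of 2 of each other with both above the mismatch controls. Ranked by the SD of their difference in ratio over the 5 arrays, miR-103 and miR-107 came 1st of 41, at 0.0095, and miR-26a and miR-26b came 32nd, at 0.22. The median was 0.074. Next to the lowest was miR-23a with miR-23b, at 0.020, and the highest was miR-7a with miR-7b, at 0.58. Both of these pairs, like miR-103 and miR-107, differ by 1 edit. This ranking was chosen after the values were seen and carries no test.

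**Figure D3:**
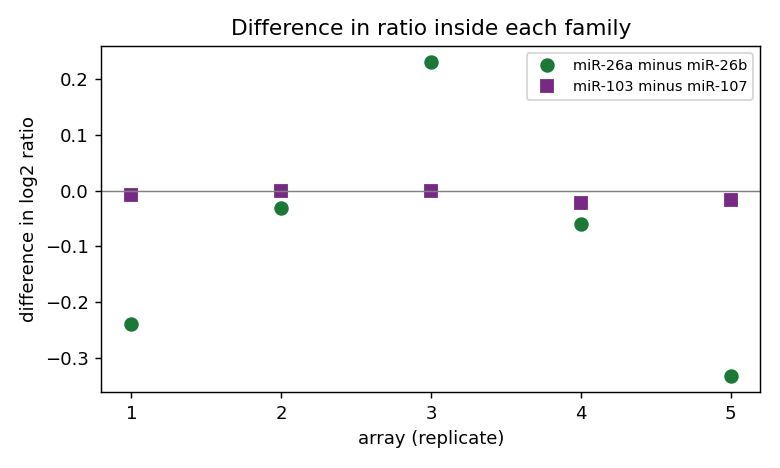
Difference in log2 ratio (vertical axis) on each array (horizontal axis) for miR-26a minus miR-26b (green circles) and miR-103 minus miR-107 (purple squares). The squares stay between −0.022 and −0.00055, while the circles run from −0.33 on replicate 5 to 0.23 on replicate 3.

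The result for all 4 members depended on how the intensity trend of the arrays was treated. With arrays aligned by their medians in place of loess, miR-26a was at 0.71 ± 0.39 (SD, n = 5; limma adjusted p = 0.017), miR-26b at 0.74 ± 0.27 (adjusted p = 0.0094), miR-103 at 0.61 ± 0.40 (adjusted p = 0.027) and miR-107 at 0.62 ± 0.40 (adjusted p = 0.026). All 4 were above 0 on 5 of 5 arrays there. In that setting 43.7% of all miRNAs tested passed, 20.8% as higher in Test. Of the 142 brightest miRNAs, 102 (71.8%) passed as higher in Test, and 0 of the 284 dimmest did. The median ratio was 0.60 in the brightest 25% and −0.17 in the dimmest 25%, so the members moved with the other bright miRNAs. With no normalization at all they stood at −0.011, 0.016, −0.11 and −0.11 for miR-26a, miR-26b, miR-103 and miR-107, while the median of all miRNAs was −0.77.

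**Figure D4:**
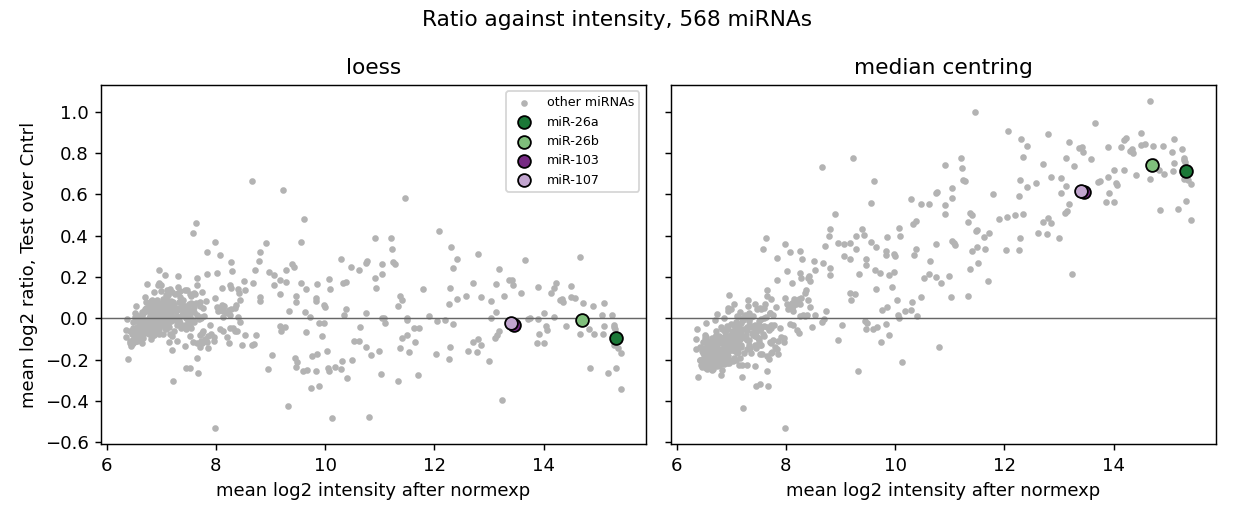
Mean log2 ratio of Test over Cntrl (vertical axis) against mean log2 intensity after background correction (horizontal axis) for 568 miRNAs, with loess (left) and with median centring only (right). The 4 members, coloured, lie within the band of miRNAs of like intensity in both panels, at −0.096 to −0.0092 on the left and at 0.61 to 0.74 on the right.

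**Figure D5:**
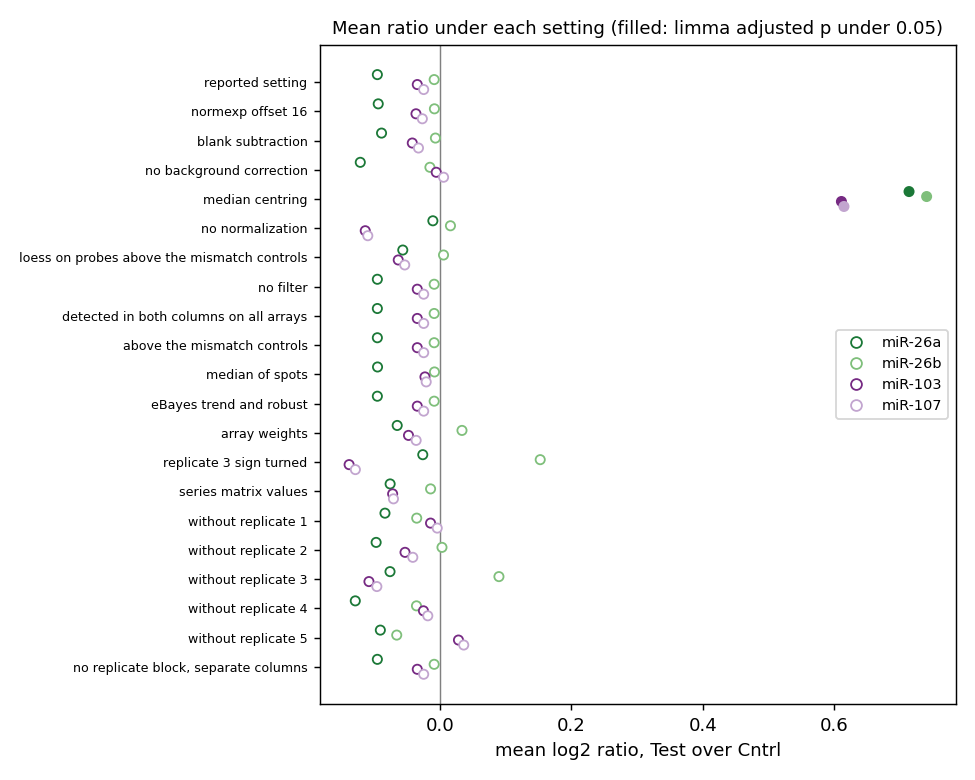
Mean log2 ratio of Test over Cntrl (horizontal axis) of the 4 members under each processing setting (vertical axis); filled circles passed an adjusted p of 0.05 in limma. The filled circles, at 0.61 to 0.74, are those of median centring, and the other settings lie between −0.14 and 0.15.

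The authors' own normalized log2 ratios gave like values. MiR-26a was at −0.051, −0.037, −0.24, 0.077 and −0.13 on replicates 1 to 5, with a mean of −0.076 ± 0.12 (SD, n = 5). MiR-26b was at 0.16, −0.037, −0.50, 0.087 and 0.22 (mean −0.015 ± 0.29). MiR-103 was at −0.15, 0.00052, 0.14, −0.087 and −0.27 (mean −0.073 ± 0.16), and miR-107 at −0.17, 0.016, 0.14, −0.089 and −0.25 (mean −0.071 ± 0.16). The order of the arrays was that of the loess ratios for miR-103 and miR-107, with replicate 3 highest and replicate 5 lowest. Limma adjusted p values on these values were 0.616, 0.948, 0.664 and 0.669 for miR-26a, miR-26b, miR-103 and miR-107.

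Of the 6 opposite arms that the hairpins can give, the array carried 1, miR-26b*, which lies on the other arm of the miR-26b hairpin. It was near background (mean 83.5 units in Test and 361 in Cntrl) and below the mismatch criterion. Its ratios were −0.028, −0.0025, 0.30, 0.046 and 0.039 on replicates 1 to 5, with a mean of 0.071 ± 0.13 (SD, n = 5; limma adjusted p = 0.470). On replicate 3 it was above 0 where miR-26b was at −0.40.

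The miR-15/16 family, known as repressors of the cell cycle, has the seed AGCAGCA, a run that miR-103 and miR-107 hold 1 position earlier, so that only a part of it lies in their own seed GCAGCAU. The shared run AGCAGCA, in capitals, starts at position 1 in miR-103 and miR-107 and at position 2 in miR-15a, miR-15b, miR-16, miR-195, miR-322 and miR-497, and in no other of the 569 targets.

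miR-103: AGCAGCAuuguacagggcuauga
miR-16: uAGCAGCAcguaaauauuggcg
miR-195: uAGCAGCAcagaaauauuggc

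All 6 members of the miR-15/16 list had means above 0, with a median of 0.13, against a median of 0.0029 over all 568. None of the 6 passed an adjusted p of 0.05 (limma), and 3 had an unadjusted p below 0.05, all higher in Test, where 8.63% of all miRNAs did so. MiR-195 was at 0.25, 0.088, 0.051, 0.28 and 0.072 on replicates 1 to 5, all above 0. MiR-322 was at 0.52, 0.55, 0.11, 0.22 and −0.0060, and miR-15b at 0.70, 0.48, −0.16, 0.53 and 1.35. On replicate 3, where miR-103 and miR-107 were highest, miR-16 (0.22) and miR-497 (0.21) were also at their highest. By contrast, miR-195 (0.051) and miR-15b (−0.16) were at their lowest there, and the median of the list was 0.082. The difference between this list and miR-103/miR-107 was not tested.

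Among 51 other miRNAs of introns of protein-coding genes, miR-15b and miR-16 again included, 35 had means above 0 and 16 below, with a median of 0.076, where 51.6% of all miRNAs tested had means above 0. None passed an adjusted p of 0.05 (limma). An unadjusted p below 0.05 was found for 18 of the 51, 12 higher and 6 lower in Test, against 19.4% of all miRNAs, 8.63% higher and 10.7% lower. The smallest p belonged to miR-328 (−0.32, −0.23, −0.19, −0.32 and −0.32 on replicates 1 to 5), miR-342-3p (0.37, 0.21, 0.16, 0.32 and 0.14) and miR-190 (−0.17, −0.053, −0.16, −0.089 and −0.13, near background). Each kept its direction on 5 of 5 arrays, as 19.7% of all miRNAs did, and none of the 4 members described here did.

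Likeness of pattern was measured as the root-mean-square difference of the 5 ratios. MiR-103 and miR-107 were nearest to each other, at 0.013 on the log2 scale, against a median of 0.22 over all other miRNAs for each. The next for both were miR-466e-5p (0.064 from miR-103 and 0.053 from miR-107) and miR-509-3p (0.071 and 0.063), neither of them above the mismatch controls. MiR-26a was nearest to miR-186* (0.046), miR-291b-3p (0.050) and miR-544 (0.052), against a median of 0.20, and none of these was above the mismatch controls. The closest to miR-26b were miR-699 (0.12), miR-680 (0.12) and miR-155 (0.13), against a median of 0.25, and miR-155 was not above the mismatch controls.

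No marker miRNA of the cell types that a dissected hippocampus can hold passed an adjusted p of 0.05 (limma). An unadjusted p below 0.05 was found for 2 of 6 neuronal markers, both lower in Test, and for 1 each, higher in Test, of the leukocyte and microglial, endothelial and choroid plexus lists. The neuronal list had 6 of 6 means below 0 (median −0.10) and the leukocyte and microglial list 6 of 6 above 0 (median 0.095), where 48.4% of all miRNAs had means below 0. Above the mismatch controls were 6 of 6 neuronal markers, but only 2 of 6 leukocyte and microglial markers. The same held for 3 of 4 oligodendrocyte, 4 of 4 endothelial and mural, 2 of 5 choroid plexus and 2 of 3 red blood cell markers. The choroid plexus marker with an unadjusted p below 0.05 (limma), miR-211, was not above them. Means above 0 numbered 3 of 4 for oligodendrocytes (median 0.10), 3 of 4 for endothelium and mural cells (median 0.072), 4 of 5 for choroid plexus and ependyma (median 0.065) and 2 of 3 for red blood cells (median 0.044). With median centring the sign of 3 of these medians turned, to 0.68 for neurons, −0.011 for leukocytes and microglia and −0.026 for choroid plexus. Fewer cells of a type and less RNA per cell cannot be told apart in whole tissue. The part of these lists in the ratios of the 4 members was not tested.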

How the data were processed

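Small RNA of hippocampus was measured on 5 two-colour arrays with 3968 spots each, 6 per miRNA. The deposited tables hold linear spot intensity for a Test and a Cntrl column, not normalized, with background columns at 0 throughout, per the file headers. No source used here names the scanner or image software. A second deposited table holds the authors' log2 ratios, 1 per probe for 573 probes, with array medians of −0.036, −0.019, −0.028, −0.026 and −0.048. Over 318 probes above the mismatch controls they correlated with the loess ratios of the same array at r = 0.965 to 0.985. This sets their direction as Test over Cntrl, while no slope against the loess ratios was fitted to set their scale. How the authors normalized and centred them is unknown.

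Intensities were corrected by normexp (offset 50) and normalized by loess (span 0.3) with control spots at weight 0, and the 6 spots were averaged. The test covered miRNAs whose mean lay above the 95th percentile of 266 empty spots, in Test or Cntrl, on 3 or more of the 5 arrays. Of 569 miRNAs, 568 met this, the 4 members included. Ratios were fitted with an intercept in limma 3.58.1 (R 4.3.3), with two-sided p-values adjusted over all 568 by Benjamini-Hochberg. Each array joins a pair of mice and is its own block. Differences inside a family were tested by exact sign flips over arrays. The mismatch criterion used the 95th percentile of 136 mismatch spots. Figures were drawn with matplotlib 3.10.9.

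The fit was also run on simulated arrays with known changes. MiRNAs varied independently of each other there, unlike on these arrays, so that run does not show how the p-values given here behave. The members, lists and alternatives were chosen with earlier results of these data known. Beyond the members, the text names the probed opposite arm, the 3 smallest p of the miR-15/16 and intron lists, the 3 nearest patterns per member and the marker lists. MiR-16 and miR-497 were named outside this rule, for their values on replicate 3. So were miR-23a with miR-23b and miR-7a with miR-7b, for their place in the ranking of near-identical pairs. Hosts are RefSeq GRCm38.p6 genes whose span holds the hairpin, and that the hairpins are intronic is background knowledge. The list of intron miRNAs was likewise written from background knowledge.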

Additional observations from a re-analysis of the deposited data

How the results depend on the processing

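With the reported setting 0 of 568 miRNAs passed an adjusted p of 0.05 in limma (110 at an unadjusted p below 0.05). The count was 248 with median centring, 442 with no normalization, 21 with array weights, 2 with a normexp offset of 16, 2 on the authors' log2 ratios, 1 with separate columns (no replicate block) and 9 at a threshold of 0.10. Leaving out 1 array gave 0 to 5, with 5 without replicate 3. Median centring turned miR-26a to 0.71, miR-26b to 0.74, miR-103 to 0.61 and miR-107 to 0.62, all past the threshold, where ratios rose with intensity. No other setting called a member. The sign of miR-26b also turned with no normalization (0.016), with loess fitted only where probes exceeded mismatch controls (0.0050), with array weights (0.033) and with the sign of replicate 3 turned (0.15), and that of miR-107 without background correction (0.0051). Leaving out 1 array gave −0.13 to −0.077 for miR-26a, −0.066 to 0.089 for miR-26b (above 0 without replicate 2 or 3), −0.11 to 0.028 for miR-103 and −0.097 to 0.036 for miR-107 (both above 0 without replicate 5). The cause of these turns was not tested. The fit without the replicate block took the columns separately, after quantile normalization of mean log2 intensity between arrays. Its limma adjusted p for miR-26a, miR-26b, miR-103 and miR-107 was 0.569, 0.999, 0.911 and 0.951. The means of both differences inside a family stayed below 0 in 11 of 11 settings, with exact p up to 1 for miR-103 minus miR-107 and up to 0.875 for miR-26a minus miR-26b. These settings overlap. Median centring and no normalization give the same difference inside a family by construction, and other settings leave out 1 array of the same data. The authors' log2 ratios, for these differences a setting chosen after seeing the data, had miR-103 minus miR-107 above 0 on 3 of 5 arrays. The means ran from −0.17 to −0.025 for miR-26a minus miR-26b and from −0.012 to −0.0013 for miR-103 minus miR-107. Signal of the members was far above background. The number of arrays, the shared dye orientation, the unnamed columns and the choice of normalization limit the ratios. For miR-26a, signal near the top of the recorded range is a further limit.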
